A study of Mus musculus with 3 samples.

Results

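The epidermal growth factor (EGF) family ligands and ERBB receptors described here were 8 genes, taken from a fixed list of names. They were the ligand genes *Nrg1*, *Areg*, *Ereg*, *Btc*, *Tgfa* and *Epgn*, the receptor gene *Erbb3*, and *Errfi1*, which encodes a feedback inhibitor of the receptors. All 8 were found among the 9781 gene rows used. Each gene was described across cell classes set by marker genes and across the barcode sets of the table.

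Single cell RNA-seq libraries came from 3 groups of mouse tissue, with 1 library per group, all labelled normal. These were the urogenital sinus (UGS), the tissue that gives rise to the prostate, from males at E18.5, and the prostate at 2 later ages, P14 and P35. No genotype, strain or number of animals stands in the labels, and the study describes its mice as a mix of C57BL/6 and 129S1/SvImJ backgrounds. In all groups the tissue was dissociated with collagenase and TrypLE before capture. Every cell sat in 1 table, with barcodes that ended in 1, 2 or 3. No label ties these endings to tissues, so they are called sets 1, 2 and 3 and were not assigned to ages. The study's cell count for the embryonic library equals the number of barcodes in the smallest set, while its counts for the other libraries differ from the other sets, and cell numbers were not used to assign them. Values of the sets stand side by side, without a test between them, because there were no replicates.

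EGF family ligands are made as precursors in the cell membrane and are released by proteases of the ADAM and rhomboid families. Amphiregulin (*Areg*), TGF-alpha (*Tgfa*) and epigen (*Epgn*) bind EGFR, betacellulin (*Btc*) and epiregulin (*Ereg*) bind EGFR and ERBB4, and neuregulin 1 (*Nrg1*) binds ERBB3 and ERBB4. ERBB3 has little kinase activity of its own and signals in pairs with other family members, foremost ERBB2. The family is known for growth of branching epithelia, and neuregulin with ERBB3 is known for the survival of Schwann cells. *Egfr* and *Erbb2* were not analysed here, since the gene rows used cover chromosome X, chromosomes 1 to 7 and 10, and a stretch of chromosome 8.

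*Epgn*, *Ereg*, *Areg* and *Btc* lie next to each other on mouse chromosome 5 (GRCm38.p6, positions 91027517 to 91402994), over 375.5 kb. Gaps of 39.4, 45.9 and 208.8 kb separate them, and no other protein-coding gene of RefSeq lies between them. The other members are on chromosomes 4 (*Errfi1*), 6 (*Tgfa*), 8 (*Nrg1*) and 10 (*Erbb3*). RefSeq promoter windows were at hand for 5 of the 8 genes, and none was at hand for *Nrg1*, *Ereg* and *Erbb3*. Shown first are the 250 bases before the start site of *Areg* and *Errfi1*, the members with the most UMIs, and of *Epgn*, the chromosome 5 neighbour with another pattern across classes. Capitals mark the cAMP response element TGACGTCA and the TATA box TATAAA, which were searched on both strands, as was the AP-1 site TGACTCA.
Areg (chr5:91139349-91139598, + strand): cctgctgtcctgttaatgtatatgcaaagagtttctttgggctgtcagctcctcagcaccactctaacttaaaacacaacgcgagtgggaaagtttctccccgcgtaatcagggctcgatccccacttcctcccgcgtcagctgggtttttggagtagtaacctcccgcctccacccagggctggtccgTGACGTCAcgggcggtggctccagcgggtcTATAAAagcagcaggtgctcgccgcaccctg
Errfi1 (chr4:150854820-150855069, + strand): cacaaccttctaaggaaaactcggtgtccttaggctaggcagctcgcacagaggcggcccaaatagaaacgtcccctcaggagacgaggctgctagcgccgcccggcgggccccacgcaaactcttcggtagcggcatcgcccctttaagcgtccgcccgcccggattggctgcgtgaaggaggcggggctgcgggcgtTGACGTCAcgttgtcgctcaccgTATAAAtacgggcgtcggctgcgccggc
Epgn (chr5:91027267-91027516, + strand): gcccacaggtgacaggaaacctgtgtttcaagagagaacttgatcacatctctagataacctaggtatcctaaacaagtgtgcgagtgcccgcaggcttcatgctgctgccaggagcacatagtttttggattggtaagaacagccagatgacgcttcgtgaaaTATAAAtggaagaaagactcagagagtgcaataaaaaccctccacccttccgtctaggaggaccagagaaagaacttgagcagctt
The *Areg* window held TGACGTCA from position -61 and TATAAA from position -31, and the *Errfi1* window held them from -51 and -28, counted from the start site. The *Epgn* window held TATAAA alone, from -86. No match to any of the motifs was in the *Btc* or *Tgfa* windows, nor in the window of a second *Errfi1* start site. Of 32536 mouse promoter windows of the same length, 1.56% held TGACGTCA, 12.3% held TATAAA and 4.45% held TGACTCA. A match describes the letters and is not evidence of binding.

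Set 1 had 766 cells with a median of 19357 UMIs (unique molecular identifiers, each 1 captured mRNA molecule), while sets 2 and 3 had 5350 and 8360 kept cells with medians of 1738 and 1788. Set 1 thus stood apart in depth, and 14 barcodes occurred in more than 1 set. Levels are given as CPM, which is a gene's UMIs in a class for every 1000000 UMIs that the class held, with exact 95% Poisson intervals. All intervals cover counting error only, and levels of different genes are not compared because 3' capture differs between genes. Epithelium-like cells numbered 145, 1254 and 2633 in sets 1, 2 and 3. Fibroblast-like cells numbered 370, 1661 and 2625, smooth muscle-like cells 82, 1598 and 1951, and glia-like cells 21, 189 and 237. Within epithelium, basal-like cells numbered 0, 719 and 1519, luminal-like cells 5, 191 and 453, and urothelium-like cells 139, 197 and 417. These sizes moved with the clustering. Fibroblast-like cells of set 1 made up 48.3% of the set, but 25.5% at resolution 1.0, 17.4% with at least 1000 genes per cell and 0.65% (5 cells) without integration. Without integration, basal-like cells of set 2 numbered 18 and urothelium-like cells of sets 2 and 3 numbered 7 and 30, and at resolution 1.0 the urothelium-like cells of set 1 numbered 38. With at least 1000 genes per cell, 35 cells of set 1 were basal-like, and no cell of any set was luminal-like. Some labels were not borne out in every set. In smooth muscle-like cells of set 1 the smooth muscle list was summed at 4267 CPM, below the fibroblast list at 5010 and the erythroid list at 5422, against 24740 and 23508 CPM of the smooth muscle list in sets 2 and 3. The 25 leukocyte-like cells of set 2 had 5977 CPM of the smooth muscle list and 4001 CPM of the leukocyte list. In pericyte-like cells the pericyte list was at 3380, 2376 and 3760 CPM in sets 1, 2 and 3. The smooth muscle list was above it in each set, at 5023, 5363 and 9726 CPM. The fibroblast list was also above it in sets 1 and 2, at 5747 and 6737 CPM. The summed urothelium list (9 of 17 genes with a row) was at 6632 CPM in the urothelium-like cells of set 1. It was at 787 and 1340 CPM in those of sets 2 and 3, against 792 and 1378 CPM in the luminal-like cells. In sets 2 and 3 these clusters are therefore non-basal epithelium that the marker lists did not set apart from luminal-like cells.

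Epithelium-like and fibroblast-like cells were compared first, which asks whether each member was mainly epithelial or stromal. Counting genes with at least 10 UMIs over both classes, at least 2-fold higher levels in epithelium-like cells were found for 6, 4 and 6 of the 8 members in sets 1, 2 and 3. Of all rows tested, 17%, 16.7% and 21.6% were higher by this rule. In each set 1 member was at least 2-fold lower, where 26.2%, 21.9% and 23.4% of all rows were lower. The member that was lower was *Nrg1* in set 1 and *Errfi1* in sets 2 and 3. The count of higher members was 2 in set 1 with cells thinned to 900 UMIs. Members left with under 10 UMIs over both classes by the thinning were not counted. In set 3 the count was 1 with at least 1000 genes per cell and 3 at 3-fold. The filter of 1000 genes left 25 fibroblast-like cells in set 3, and sums under 3 UMIs were set to 3. Over the alternatives with a value, the lowest set 3 ratios of *Tgfa*, *Epgn* and *Erbb3* were 0.30, -0.36 and 0.77. *Tgfa*, *Epgn* and *Erbb3* were higher in all 3 sets, whereas *Areg*, *Ereg* and *Btc* were higher in sets 1 and 3 and less than 2-fold apart in set 2. The median log2 ratio of the members was 4.51, 1.56 and 1.30, against -0.17, -0.05 and 0.10 over all rows tested. The members were chosen with earlier results of these data known, so these counts and medians describe the chosen genes only. *Egf* and *Erbb4*, which also had a row, are not among the members and are given below.

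**Figure D1:**
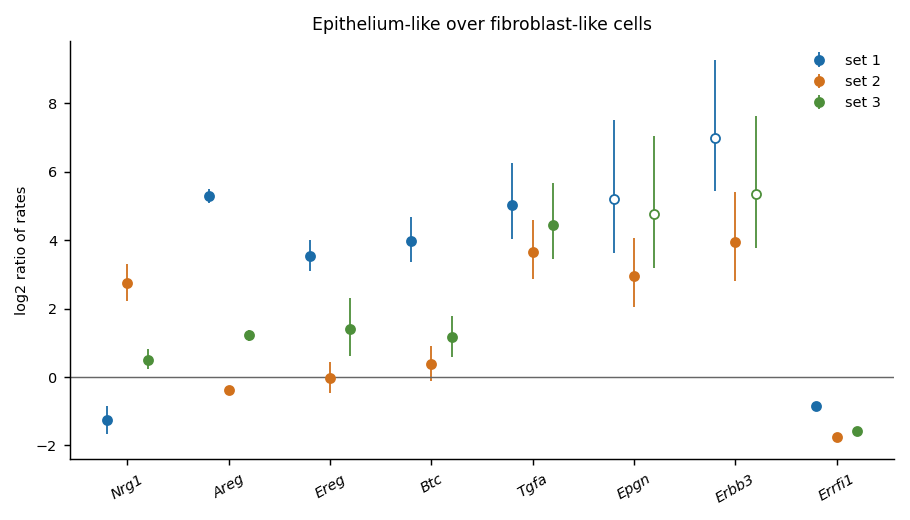
Log2 ratio of the rate in epithelium-like over fibroblast-like cells (y axis) for each of the 8 genes (x axis), coloured by barcode set, with exact 95% intervals for counting error. Open points are values where a sum of fewer than 3 UMIs was set to 3. *Tgfa*, *Epgn* and *Erbb3* lie above 0 and *Errfi1* below 0 in all sets, while *Nrg1* and *Areg* lie on both sides and *Ereg* of set 2 lies at -0.02.

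*Nrg1*, the ERBB3 and ERBB4 ligand, was highest in basal-like cells in the sets that held them. Its rate there was 152 CPM in set 2 (95% interval 137 to 167, 409 UMIs) and 95.8 CPM in set 3 (87.6 to 105, 502 UMIs). Luminal-like cells had 23.8 CPM in set 2 (15.7 to 34.6) and 12.0 CPM in set 3 (8.85 to 15.8). The rate in luminal-like cells was thus 6.38-fold lower in set 2 (log2 ratio -2.67, -3.29 to -2.11) and 8.01-fold lower in set 3 (-3.00, -3.46 to -2.58). The urothelium-like clusters of sets 2 and 3 were also below the basal-like cells, at 30.005 and 14.9 CPM (log2 ratios -2.34 and -2.68). Basal-like cells held 47.1% and 52.2% of the *Nrg1* UMIs of sets 2 and 3, with 16.9% and 19.1% of all UMIs. No few cells carried this level, since the 3 cells with most *Nrg1* UMIs held 4.16% and 3.59% of the basal-like total. Epithelium-like cells in none of the named subclasses had 79.1 and 35.8 CPM in sets 2 and 3. Cells left unnamed had 86.2 and 45.0 CPM. The unnamed cells held 24.3% and 11.1% of the *Nrg1* UMIs, with 15.4% and 8.69% of all UMIs. At least 1 *Nrg1* UMI was in 36.3% of basal-like cells in set 2 and 22.1% in set 3. After thinning every cell to 900 UMIs these shares were 14.01% and 6.69%, against 0.582% and 0.432% in smooth muscle-like cells. Median depths were 2610 and 2576 UMIs in basal-like and 1583 and 1605 in smooth muscle-like cells.

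In stroma, fibroblast-like cells had 23.6 CPM of *Nrg1* in set 1 (20.2 to 27.5), 12.5 in set 2 (8.56 to 17.7) and 30.2 in set 3 (24.9 to 36.3). The epithelium-like cells of set 1, none of which were classed as basal-like in the main clustering, were lower than the fibroblast-like cells at 9.90 CPM (log2 ratio -1.26, -1.68 to -0.85). In sets 2 and 3 the epithelium-like cells were higher, at 83.1 and 43.0 CPM (log2 ratios 2.73 and 0.51, intervals 2.22 to 3.29 and 0.22 to 0.81). The *Nrg1* ratio therefore changed sign between sets that also differed in their epithelial makeup. Among cells with at least 1000 genes, which left 25 fibroblast-like cells in set 3, it was -0.85 there. Smooth muscle-like cells had 23.5, 7.92 and 5.62 CPM. In endothelium-like cells of set 3 the rate was 37.5 CPM (25.4 to 53.2), but 3 of the 198 cells held 41.9% of the 31 UMIs. The epithelium list, 11 genes with a row, was summed at 579 CPM in these cells and at 31.3 CPM in the endothelium-like cells of set 1. Its part in the *Nrg1* level was not tested.

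**Figure D2:**
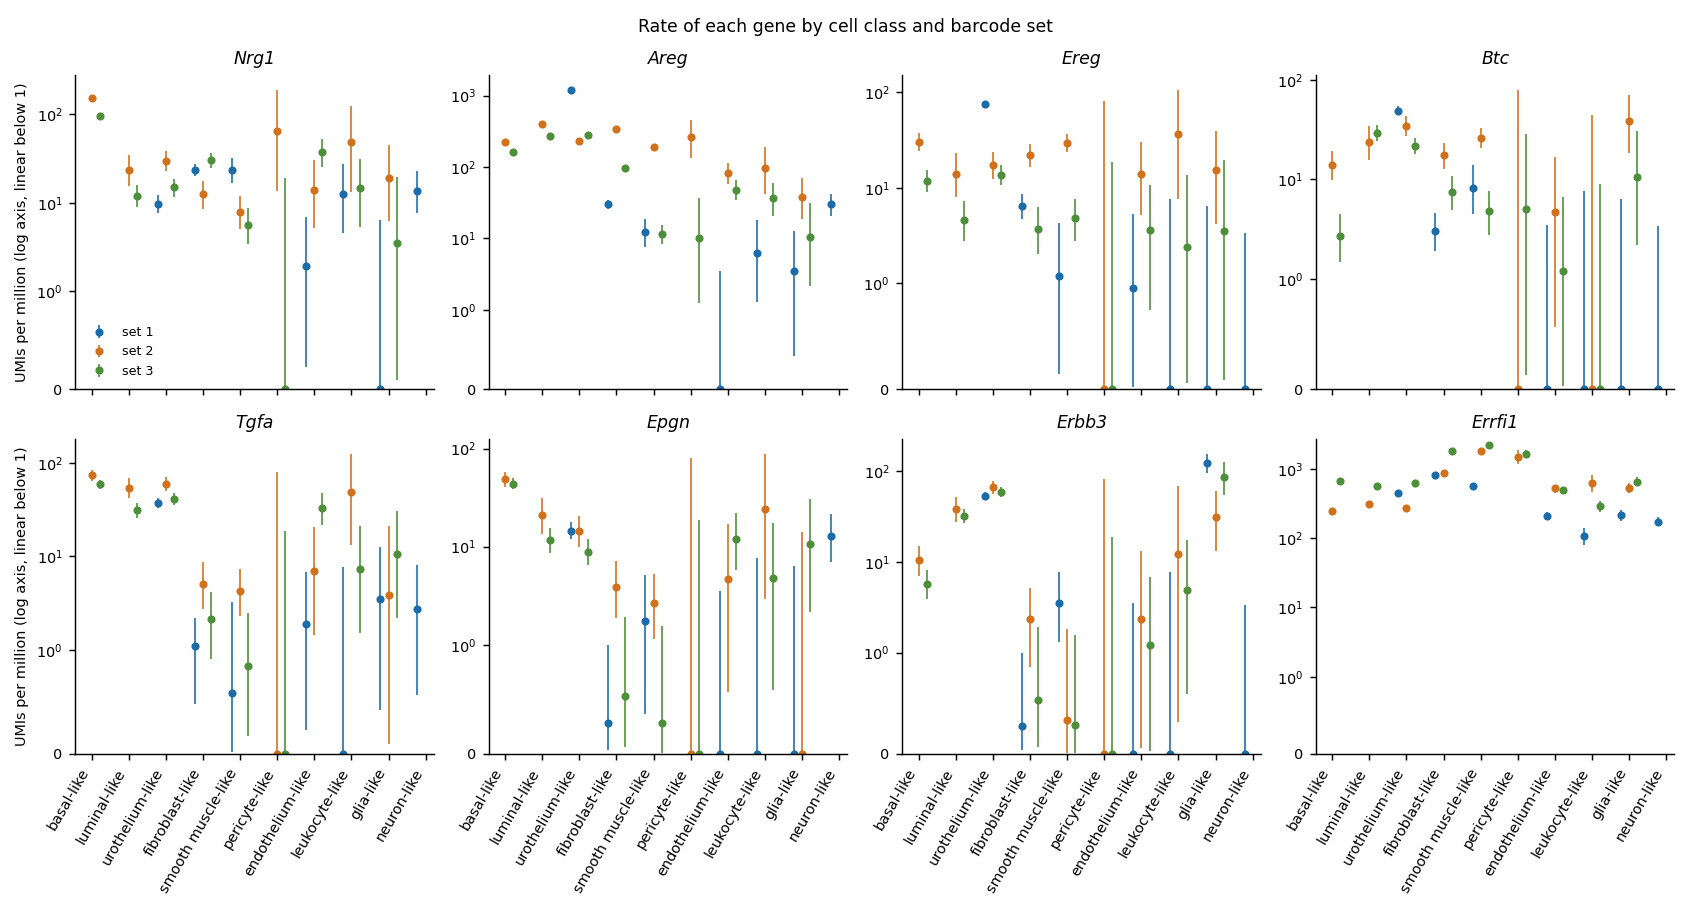
Rate of each gene in CPM (y axis, log scale, linear below 1) by cell class (x axis) for classes of at least 20 cells in a set, coloured by barcode set, with exact 95% Poisson intervals. *Nrg1* and *Epgn* are highest in basal-like cells, *Erbb3* in glia-like and non-basal epithelial cells of sets 1 and 3, and *Errfi1* in fibroblast-like, smooth muscle-like and pericyte-like cells.

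*Areg* encodes amphiregulin, an EGFR ligand made by many epithelia. In set 1 it stood at 1192 CPM in the urothelium-like cells (1166 to 1218, 8191 UMIs), and 85.6% of the 139 cells had a UMI. The named stromal and immune classes of set 1 were lower. Fibroblast-like cells had 29.9 CPM, and 3 of the 370 cells held 55.3% of those UMIs, with 13.5 CPM left without them. Leukocyte-like cells of set 1 had 6.26 CPM, and endothelium-like cells had 0 UMIs in 1052817, which allows up to 3.504 CPM by the Poisson interval. In this set *Areg* was 39.1-fold higher in epithelium-like than fibroblast-like cells (log2 ratio 5.29, 5.09 to 5.49).

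The picture for *Areg* differed in the other sets. In set 2 it was at 222 CPM in basal-like, 395 CPM in luminal-like and 233 CPM in urothelium-like cells, with 95% intervals of 204 to 240, 359 to 433 and 213 to 254. Fibroblast-like cells of set 2 had 339 CPM (317 to 362, 867 UMIs) and smooth muscle-like cells 190 CPM (175 to 206). Epithelium-like cells were thus slightly lower than fibroblast-like cells in this set (log2 ratio -0.38, -0.50 to -0.27). Other classes of set 2 had 38.4 CPM in glia-like, 81.8 in endothelium-like and 97.6 in leukocyte-like cells (8 UMIs), some types of which are known to make amphiregulin. The fibroblast-like level lay above these. The 29 pericyte-like cells had 262 CPM (135 to 457, 12 UMIs), an interval that overlaps the fibroblast-like one. Of these 12 UMIs 3 cells held 83.3%, and 50.6 CPM remained without them. After thinning to 900 UMIs, 13.6% of fibroblast-like, 9.89% of smooth muscle-like and 1.60% of glia-like cells of set 2 kept an *Areg* UMI. Median depths before thinning were 1245, 1583 and 1058 UMIs, and unthinned shares were 17.0%, 15.1% and 5.29%. The signal was spread over cells, since the 3 highest cells held 7.15% of the fibroblast-like UMIs. In set 3 the order was luminal-like 274 and urothelium-like 277 CPM, which did not differ beyond counting error, then basal-like 162, fibroblast-like 96.0 and smooth muscle-like 11.5 CPM. Luminal-like cells were above basal-like cells in both sets (log2 ratios 0.83 and 0.76, intervals 0.65 to 1.01 and 0.63 to 0.89), but with cells classed one by one by their marker sums the ratio in set 2 was -0.013.

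*Ereg*, the neighbour of *Areg* on chromosome 5, encodes epiregulin. It was at 75.2 CPM in the urothelium-like cells of set 1 (68.9 to 82.0, 517 UMIs). Within that class the 51 cells of cluster e4 had 155 CPM and the 88 cells of cluster e6 had 16.2 CPM. *Areg* in the same clusters was at 1516 and 951 CPM, so both genes were higher in e4 of this set. In sets 2 and 3 the order was the other way for *Ereg*, with 13.2 and 7.06 CPM in e4 against 49.3 and 36.2 CPM in e6. *Areg* was at 229 CPM in e4 and 259 CPM in e6 of set 2, with overlapping intervals, and at 253 and 356 CPM in set 3. The 3 cells with most *Ereg* UMIs held 28.2% of the class total, and 56.4 CPM remained without them. In sets 2 and 3 basal-like cells had 30.4 CPM (24.2 to 37.7) and 11.8 CPM (9.07 to 15.2), above luminal-like cells with 14.1 and 4.64 CPM (log2 ratios -1.11 and -1.35, intervals -1.98 to -0.33 and -2.18 to -0.59). This order of basal-like and luminal-like cells is the opposite of that of *Areg*. Urothelium-like cells of sets 2 and 3 had 17.3 and 13.7 CPM of *Ereg* (log2 ratios over basal-like cells -0.81 and 0.21). The ratio of set 2 was 0.61 with cells classed one by one and 0.092 with cells thinned to 900 UMIs. Fibroblast-like and smooth muscle-like cells of set 2 had 21.9 and 29.4 CPM of *Ereg*. Endothelium-like and glia-like cells of that set had 14.01 CPM (5.14 to 30.5) and 15.4 CPM (4.19 to 39.3), intervals that overlap those of both stromal classes, and leukocyte-like cells had 36.6 CPM from 3 UMIs (7.55 to 107).

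*Btc*, the fourth gene of the chromosome 5 group, encodes betacellulin. Its level in set 1 was 49.3 CPM in urothelium-like cells (44.2 to 54.9) and 3.06 CPM in fibroblast-like cells (1.92 to 4.63). In set 3 it was at 29.5 CPM in luminal-like (24.5 to 35.3), 21.8 in urothelium-like (17.9 to 26.3) and 2.67 in basal-like cells (1.46 to 4.48). Non-basal cells of set 3 were therefore higher, 11.1-fold for luminal-like (log2 ratio 3.47, 2.66 to 4.38) and 8.16-fold for urothelium-like (3.03, 2.22 to 3.95). In set 2 the same ratios were 0.75 (-0.01 to 1.503) and 1.30 (0.72 to 1.90), with 14.1 CPM in basal-like cells. Other classes of set 2 were close to this, with 17.6 CPM in fibroblast-like, 26.4 in smooth muscle-like and 38.4 in glia-like cells (10 UMIs). The interval of the luminal-like ratio in set 2 thus included 0.

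*Tgfa* encodes TGF-alpha, an EGFR ligand of epithelial cells. Every set had more of it in epithelium-like cells than in fibroblast-like cells. Epithelium-like cells had 36.3, 64.1 and 45.9 CPM, and fibroblast-like cells 1.11, 5.08 and 2.12 CPM in sets 1, 2 and 3. This gave log2 ratios of 5.03 (interval 4.03 to 6.26) in set 1, 3.66 (2.87 to 4.58) in set 2 and 4.44 (3.45 to 5.65) in set 3. Among epithelial classes its level differed less. Basal-like, luminal-like and urothelium-like cells had 73.8, 54.5 and 59.5 CPM in set 2, and 59.3, 31.2 and 41.4 CPM in set 3. Luminal-like cells were below basal-like cells in both sets, with log2 ratios of -0.44 (interval -0.87 to -0.02) and -0.93 (-1.23 to -0.62), though the first was 0.11 after thinning to 900 UMIs. Endothelium-like cells of set 3 had 32.6 CPM (21.5 to 47.5, 27 UMIs), in the class with the epithelium list at 579 CPM given above.

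*Epgn* encodes epigen, and was highest in basal-like cells, as *Nrg1* was. Basal-like cells had 48.9 CPM in set 2 (41.0 to 58.0) and 43.9 CPM in set 3 (38.4 to 49.9). Luminal-like cells had 21.1 and 11.7 CPM, and urothelium-like cells 14.5 and 8.88 CPM. The log2 ratios of luminal-like over basal-like cells were -1.21 (-1.91 to -0.58) and -1.91 (-2.39 to -1.45), and those of urothelium-like over basal-like cells were -1.75 (-2.37 to -1.18) and -2.31 (-2.81 to -1.84). *Epgn* and *Btc* thus lie at either end of the chromosome 5 group and differed in opposite directions between basal-like and urothelium-like cells. Fibroblast-like cells held 2, 10 and 2 UMIs of *Epgn*, or 0.28, 3.91 and 0.53 CPM.

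*Erbb3* encodes the receptor that binds neuregulins, and its pattern within epithelium was the reverse of that of *Nrg1*. Urothelium-like cells had 66.1 CPM in set 2 (55.6 to 78.0) and 58.5 CPM in set 3 (52.0 to 65.7), and luminal-like cells had 37.8 (27.4 to 51.0) and 31.7 CPM (26.5 to 37.7). Basal-like cells had 10.4 (6.90 to 15.0) and 5.72 CPM (3.86 to 8.17). Luminal-like cells were 3.64-fold higher than basal-like cells in set 2 (log2 ratio 1.87, 1.15 to 2.61) and 5.54-fold higher in set 3 (2.47, 1.89 to 3.09). Urothelium-like cells were 6.37-fold and 10.2-fold higher (2.67 and 3.35, intervals 2.08 to 3.31 and 2.81 to 3.95). The cells with the highest ligand level in these sets, the basal-like cells, thus had the lowest *Erbb3* level of the epithelial classes. Urothelium-like cells of set 1 had 52.7 CPM (47.4 to 58.4), where *Nrg1* was at 9.75 CPM. A UMI of *Erbb3* was in 49.2% and 46.0% of urothelium-like and 3.34% and 1.91% of basal-like cells of sets 2 and 3. Thinned to 900 UMIs, these shares were 5.58% and 5.76% against 0.840% and 0.468%, with median depths of 11116 and 10059 in urothelium-like cells before thinning. Fibroblast-like cells, which are not known for the gene, had an unthinned share of 0.361% and 0.0762%.

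**Figure D3:**
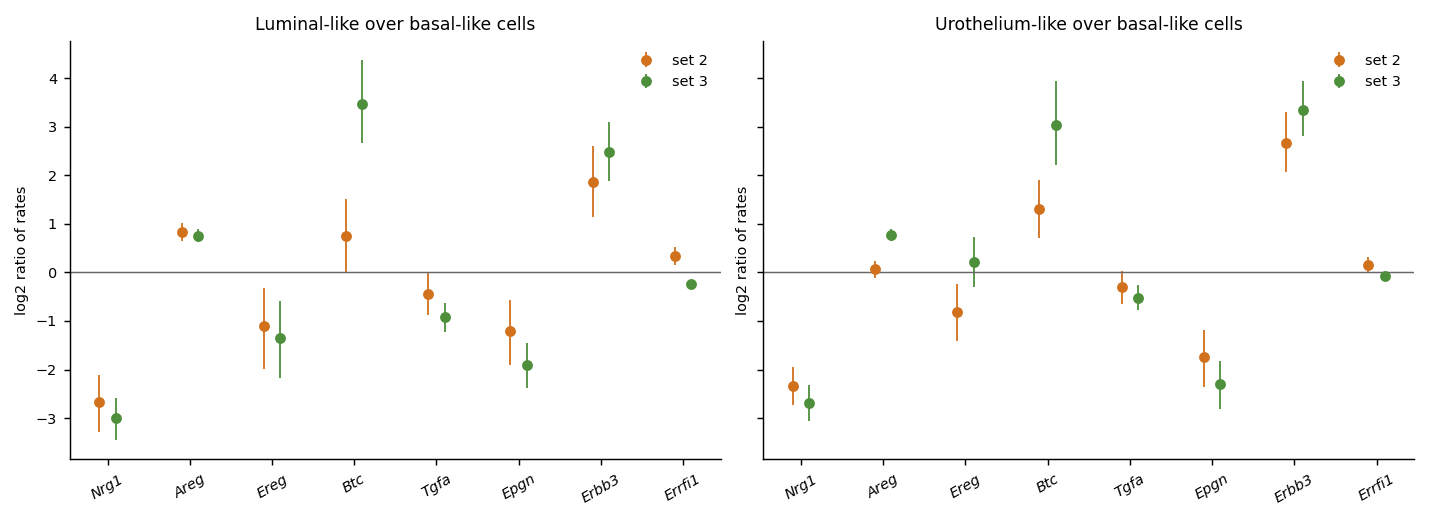
Log2 ratio of the rate in luminal-like (left) and urothelium-like cells (right) over basal-like cells (y axis) for the 8 genes (x axis) in sets 2 and 3, with exact 95% intervals for counting error. *Nrg1* and *Epgn* lie below 0 and *Erbb3* above 0 in both panels and both sets.

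Outside epithelium, *Erbb3* was carried by glia-like cells, whose 11 marker genes with a row (among them *S100b*) were summed at 7124, 6039 and 7873 CPM in sets 1, 2 and 3. The level of *Erbb3* in these cells was 121 CPM in set 1 (94.6 to 153, 70 UMIs in 21 cells), 30.7 in set 2 (13.3 to 60.6, 8 UMIs) and 84.6 in set 3 (54.2 to 126, 24 UMIs). It was above the epithelium-like level in sets 1 and 3 (log2 ratios 1.20 and 1.40, intervals 0.81 to 1.57 and 0.74 to 1.99). In set 2 the ratio was -0.22 (-1.45 to 0.78), and a difference was not detectable with 8 UMIs. Thinned to 900 UMIs the ratio in set 2 was 1.09, given without an interval. Thinning left 125 of the 189 glia-like cells of set 2 and no more than the 8 UMIs. As a mean over cells the ratio in set 3 was 2.40. Fibroblast-like cells held 2, 6 and 2 UMIs, or 0.28, 2.35 and 0.53 CPM, and smooth muscle-like cells had 3.53, 0.33 and 0.28 CPM. Epithelium-like cells held 79.9%, 85.3% and 90.2% of all *Erbb3* UMIs of the 3 sets, with 34.5%, 43.8% and 57.4% of the UMIs of all genes. The epithelium list was summed at 140, 204 and 328 CPM in glia-like cells, against 6367, 3266 and 3454 CPM in epithelium-like cells. In glia-like cells the fibroblast list was at 1486, 5874 and 5151 CPM, and the smooth muscle list at 430, 3611 and 2147 CPM. The fibroblast list of set 2 thus lay close to the glia list, and the part of stromal RNA in the *Erbb3* levels was not tested. Glia-like cells had 0, 19.2 and 3.53 CPM of the ligand *Nrg1*, from 0, 5 and 1 UMIs.

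Of the other ligand and receptor genes on the list, *Egf* and *Erbb4* had a row. *Egf* had 4, 10 and 18 UMIs in epithelium-like cells of sets 1, 2 and 3, or 0.57, 1.43 and 1.14 CPM. *Erbb4*, the other neuregulin receptor, had 1, 12 and 66 UMIs in these cells, or 0.14, 1.72 and 4.20 CPM. In set 3 its rate was 6.34 CPM in luminal-like, 6.05 CPM in urothelium-like and 1.14 CPM in basal-like cells, so that *Erbb4* was also lowest in basal-like cells there.

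*Errfi1* encodes a protein that binds the kinase domains of EGFR family receptors and blocks them, and it rises when the receptors are active. It was the member with the broadest detection, with 51639 UMIs in 10764 of the 14476 kept cells. Fibroblast-like cells had 824 CPM in set 1 (803 to 845), 872 in set 2 (836 to 909) and 1823 in set 3 (1780 to 1867). Epithelium-like cells were lower in every set, at 458 (443 to 474), 258 (246 to 270) and 608 CPM (596 to 621). As log2 ratios these gaps were -0.85 (interval -0.91 to -0.78), -1.76 (-1.85 to -1.67) and -1.58 (-1.63 to -1.54). Smooth muscle-like cells had 570, 1833 and 2239 CPM, above the fibroblast-like level in sets 2 and 3 and below it in set 1. Within epithelium *Errfi1* differed less. The log2 ratio of luminal-like over basal-like cells was 0.33 (0.14 to 0.52) in set 2 and -0.25 (-0.32 to -0.17) in set 3, with 247 and 671 CPM in basal-like cells. With cells classed one by one the ratio in set 2 was -0.18. The 2 fibroblast-like clusters of set 1 differed more, with 409 CPM in cluster 1 (213 cells) and 1207 CPM in cluster 2 (157 cells). Cluster 1 was thus below the 458 CPM of the epithelium-like cells of set 1, and only cluster 2 was above it.

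A list of 11 early response genes (such as *Jun*, *Fosb* and *Atf3*), which rise within minutes of stress or growth factor signals, was measured beside *Errfi1* and *Areg*. Its summed level was 9045, 3440 and 8364 CPM in fibroblast-like and 5552, 2377 and 3371 CPM in epithelium-like cells of sets 1, 2 and 3. Smooth muscle-like cells had 5247, 3773 and 6635 CPM. None of the 11 genes was at least 2-fold higher in epithelium-like cells, while 2, 2 and 8 were at least 2-fold lower. Of all rows tested 26.2%, 21.9% and 23.4% were lower, so the count exceeded that share in set 3 alone. The summed list was thus higher in fibroblast-like than epithelium-like cells in every set, as *Errfi1* was, and its part in the *Errfi1* or *Areg* levels was not tested.

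The pathway around the members was read from a list of 73 genes, of which 42 had a row. In epithelium-like over fibroblast-like cells 12, 10 and 15 of them were at least 2-fold higher in sets 1, 2 and 3, and 12, 10 and 8 were at least 2-fold lower. Of all rows tested, 17%, 16.7% and 21.6% were higher and 26.2%, 21.9% and 23.4% were lower, so the share of the list that was lower lay near that of all rows. The counts include the members, and for the list as a whole the median log2 ratio was -0.12, -0.17 and 0.49, against -0.17, -0.05 and 0.10 over all rows. By role, 5, 3 and 5 of the ligand genes were higher. Of 4 shedding genes with a row 1 was higher in every set and 3, 2 and 2 were lower, and of 16 adaptor and kinase genes 1, 2 and 2 were higher and 4, 4 and 2 were lower. Ligands that passed the 2-fold rule thus lay on the epithelial side apart from *Nrg1* in set 1, while shedding and adaptor genes lay on both sides.

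Among genes of this list that are not members, *Cblc*, *Ccnd1*, *Rhbdl2* and *Dusp6* had the highest median ratio over the sets. *Cblc*, an epithelial ubiquitin ligase that acts on active receptors, had rates of 52.2, 13.3 and 11.1 CPM in epithelium-like cells, against 0.42, 0.78 and 0 CPM in fibroblast-like cells. *Dusp6*, a phosphatase that switches off ERK and is induced by it, was at 189, 171 and 177 CPM against 61.3, 43.4 and 14.6 CPM (log2 ratios 1.63, 1.97 and 3.60). This is the opposite direction from *Errfi1*, although both are feedback genes. *Ccnd1*, cyclin D1, had the lower rate in the epithelium-like cells of set 1 (log2 ratio -1.47, -1.73 to -1.23) and higher in sets 2 and 3 (3.26 in both). For the rhomboid gene *Rhbdl2* the rates in epithelium-like cells were 7.35, 3.87 and 6.74 CPM, with 0 UMIs in fibroblast-like cells.

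Among the genes with the lowest median ratios were *Spred1*, *Lrig1* and *Adam12*. *Spred1*, an inhibitor of RAS signalling, had log2 ratios of -2.17, -2.10 and -1.93. *Lrig1*, which promotes the loss of ERBB receptors from the membrane, was at 1.27, 3.15 and 2.04 CPM in epithelium-like and 6.40, 30.9 and 20.7 CPM in fibroblast-like cells (log2 ratios -2.33, -3.29 and -3.35). *Adam12*, a protease that can shed EGF family ligands, was at 19.7, 17.6 and 11.9 CPM in fibroblast-like cells, against 0, 0.29 and 0 CPM in epithelium-like cells. Receptor inhibitors of the list therefore did not share a direction between epithelium-like and fibroblast-like cells.

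**Figure D4:**
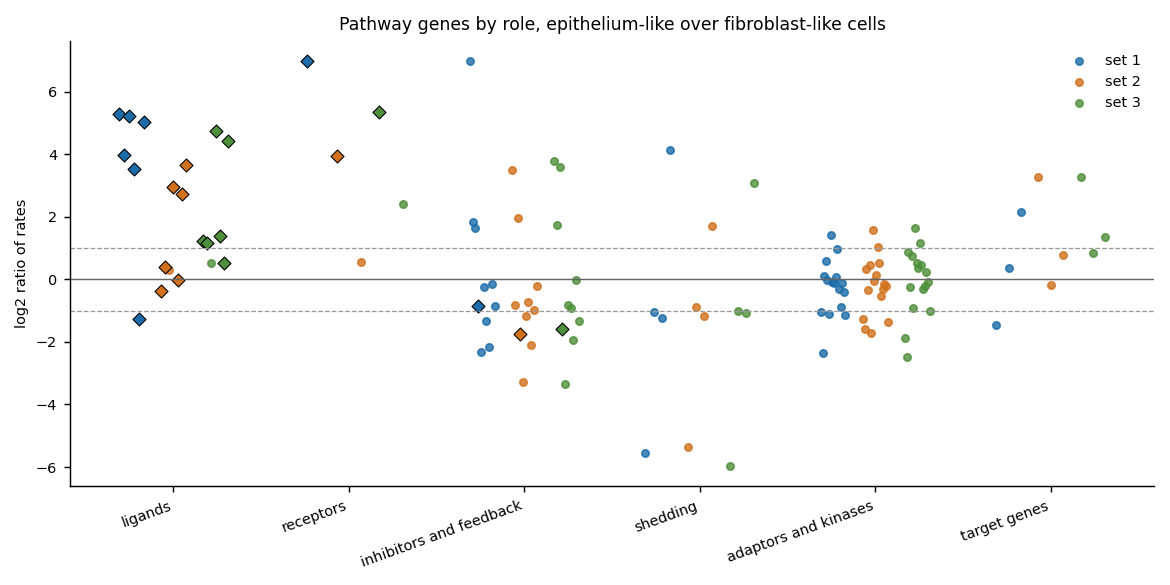
Log2 ratio of the rate in epithelium-like over fibroblast-like cells (y axis) for the pathway genes with at least 10 UMIs in both classes together, grouped by role (x axis) and coloured by barcode set, with diamonds for the 8 members and dashed lines at 2-fold. Sums under 3 UMIs were set to 3. Most ligand points lie above 0, and adaptor and kinase genes lie around 0.

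Likeness of pattern was described by Pearson's r over 27 points, each a class of at least 20 cells in 1 set, on log2 CPM with 5 CPM added. The points share libraries and depth, so r is a description only. Among the genes most like *Tgfa* were *Serpinb5* (0.97) and *Fermt1* (0.96), which are genes of epithelial cells. *Epgn* was most like *Pkp3* (0.91), *Tgfa* (0.90) and *Kdf1* (0.89), and *Erbb3* was most like *Adgrg6* (0.90), *Arhgef16* (0.89) and *Epb41l4b* (0.85). *Errfi1* was most like *Dnajb4* (0.88), *Ppp1cb* (0.87) and *Nbl1* (0.86). *Areg* was most like *Cpm* (0.87), *Nipal1* (0.86) and *Sgms2* (0.81). For *Ereg* the genes were *Sys1* (0.81), *Fras1* (0.77) and *Homer2* (0.77), for *Btc* they were *Mob1b* (0.79), *Zdhhc5* (0.79) and *Nipal1* (0.76), and for *Nrg1* they were *Itgb6* (0.75), *Ncl* (0.74) and *Naa20* (0.72). Between members, r was 0.90 for *Epgn* and *Tgfa*, 0.71 for *Areg* and *Ereg*, and -0.03 for *Nrg1* and *Erbb3*. The genes named depend on the points used. None of the 3 genes named for *Ereg* was among the first 3 when any 1 set was left out, none of those for *Nrg1* was with 1 CPM added or without set 2, and none of those for *Btc* was without set 1 or without set 2.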

How the data were processed

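All cells of the 3 single cell libraries were held in 1 table, whose values the authors deposited as the natural log of 1 plus 10000 times the UMI count over the cell's total. Per the labels and the study's methods, reads were aligned with Cell Ranger 3.1.0 to mm10 with added reporter sequences. The labels and the methods differ in the version of the 10x chemistry, and treatment of free RNA is not given in the sources used here. UMIs and cell totals were recovered from the deposited values. All 11120281 values came out whole within 0.05. The rows used cover chromosomes 1 to 7, 10 and X and part of 8, and hold 52.7%, 50.4% and 49.4% of the UMIs of sets 1, 2 and 3. Cells with at least 200 genes were kept, which removed 97 cells of set 3.

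Sets were integrated and clustered with Seurat 5.3.0 in R 4.3.3 at resolution 0.5, without the members and the pathway and early response genes. Clusters were named from marker lists, and epithelial clusters were clustered again. The scoring of clusters, this second clustering and the doublet ranking were chosen after seeing the data. A doublet caller in scanpy 1.11.5 marked 3, 0 and 0 cells, and its calls were not used. The main values keep all cells, and an alternative left out the 5, 229 and 559 highest-ranked cells. The members and lists were chosen with earlier results of these data known.

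With 1 library per group and no label that ties barcodes to libraries, no test was run and no p-value is given. Rates carry exact Poisson, shares exact Clopper-Pearson and ratios exact binomial 95% intervals (scipy 1.17.1), for counting error only. In ratios, sums under 3 UMIs were set to 3. Recovery of known ratios was tested on simulated data. Named were all members, the list's ligands and receptors with a row, the 4 pathway genes with the highest and the 4 with the lowest median ratio over the sets, and the 3 rows most like each member. Some genes that this rule names are not reported here. Positions and promoters are from RefSeq (GRCm38.p6). Alternatives covered clustering, cell filters, weighting, thinning and thresholds.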

Additional observations from a re-analysis of the deposited data

Results flagged for a closer look

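For *Nrg1*, the log2 ratio of epithelium-like over fibroblast-like cells was -1.26 in set 1, 2.73 in set 2 and 0.51 in set 3, so it pointed in opposite directions between sets. The difference between sets was not tested. The main clustering classed no cell of set 1 as basal-like (35 with at least 1000 genes per cell), and the depth per cell of set 1 was higher. Their part in the difference was not tested.

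For *Areg*, the same ratio was 5.29 in set 1, -0.38 in set 2 and 1.22 in set 3, and this difference was not tested either.

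*Errfi1* was slightly higher in luminal-like than basal-like cells of set 2 (log2 ratio 0.33) and slightly lower in set 3 (-0.25), again without a test of the difference.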

How the results depend on the processing

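No paired analysis was possible because there was a single library in every group. Of 195 alternative values of the epithelium-like over fibroblast-like ratios, 156 stayed within the counting interval of the main value, 37 moved and 2 reversed, and of 204 between epithelial subclasses 154 stayed, 45 moved and 5 reversed. With at least 1000 genes per cell, which left 25 fibroblast-like cells in set 3, the ratio of *Nrg1* in set 3 was -0.85. That of *Epgn* was -0.36, a sign set by raising the fibroblast-like sum to 3 UMIs, since the rate of Epgn was 16.2 CPM in epithelium-like and 13.8 CPM in fibroblast-like cells there. With cells classed one by one, luminal-like over basal-like ratios in set 2 were -0.013 for *Areg* and -0.18 for *Errfi1*. The urothelium-like over basal-like ratio of *Ereg* in set 2 was then 0.61, against a main value of -0.81. Thinned to 900 UMIs, this *Ereg* ratio was 0.092 and the luminal-like over basal-like ratio of *Tgfa* in set 2 was 0.11. The ratio of *Erbb3* in glia-like over epithelium-like cells was 1.78 in set 1 as a mean per cell and thinned. It was 1.09 in set 2 thinned (125 glia-like cells left), and 2.40 in set 3 as a mean per cell. Members at least 2-fold higher numbered 2 in set 1 when thinned and 1 in set 3 with at least 1000 genes. Members lower in set 1 numbered 2 at resolution 1.0, 2 with at least 1000 genes and 0 when thinned. Over the 7 alternatives that gave a value, the *Nrg1* ratio of set 1 ran from -1.58 to -1.08, so it stayed at least 2-fold lower in each. In set 3 the members lower numbered 0 with at least 1000 genes. At 3-fold, 3 members were higher in set 3 and 0 lower in sets 1 and 3, and 4, 5 and 5 pathway genes were lower. Over its alternatives the luminal-like over basal-like ratio ran from -3.16 to -1.15 for *Nrg1* and from 1.48 to 2.70 for *Erbb3* in set 2, and from -3.26 to -2.67 and from 2.39 to 3.06 in set 3. Leaving out the 3 cells with most UMIs of a member, and counting an unnamed mixed epithelial cluster as epithelium, were chosen after seeing the data. The cause of these changes was not tested. Of 32 alternative values of pattern likeness 13 moved. Ratios with under 20 cells in a class got no value, nor did those with a sum under 3 UMIs where the main value had none. These numbered 23 without integration and 23 with at least 1000 genes. With at least 1000 genes no cell was luminal-like, so luminal-like ratios had no value there and are not among the 23. The ranges of luminal-like over basal-like ratios given above therefore do not cover that filter.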
